A study of Mus musculus with 12 samples.

Results

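The expression of 10 genes for ligand-regulated transcription factors was followed in regulatory T cells (Treg) with and without the β2-integrin chain CD18. They are 9 nuclear receptors, Rora, Pparg, Vdr, Rara, Rarg, Rxra, Rxrb, Nr3c1 and Nr1h2, and the aryl hydrocarbon receptor gene Ahr, chosen by name as 10 of the 41457 genes in the tables. RNA-Seq of splenic RFP+CD4+ T cells gave 12 libraries in 4 groups of 3. CD18Foxp3 mice carry CD18 fl/fl alleles and a Cre driven by Foxp3, so that deletion is directed to Foxp3-expressing cells. The CD18wt controls were littermates with intact CD18 that carry the same Foxp3 Cre and the RFP reporter. Cells of every group were kept overnight in recombinant human IL-2 at 5 U/mL, and the stimulated groups also received agonistic anti-CD3 at 1 µg/mL and anti-CD28 at 2 µg/mL. The methods list lysis ahead of the overnight culture, and the culture was taken here to have come before RNA isolation. Ages of the mice sequenced were not given in the sources used here.

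Nuclear receptors bind small lipophilic ligands and then act on DNA as transcription factors. Retinoid X receptors (Rxra, Rxrb) are the shared partners with which retinoic acid receptors (Rara, Rarg), the vitamin D receptor (Vdr), PPARγ (Pparg) and the oxysterol receptor LXRβ (Nr1h2) form heterodimers. The glucocorticoid receptor (Nr3c1) acts as a homodimer or monomer, and Rora binds DNA as a monomer. Ahr is not a nuclear receptor but a ligand-activated basic helix-loop-helix factor that pairs with Arnt and induces Cyp1a1, Cyp1b1, Tiparp and its own repressor Ahrr. In Treg, retinoic acid, vitamin D and Ahr ligands are known for effects on differentiation and on homing to the gut and skin.

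The libraries held 10665174 to 19005482 reads on exons. Itgb2, the gene for CD18, had 502 to 558 CPM (exon reads relative to the library size, which was scaled by the trimmed mean of M values, TMM) in unstimulated CD18wt cells and 274 to 316 in unstimulated CD18Foxp3 cells. After stimulation it had 290 to 333 CPM in CD18wt and 124 to 184 CPM in CD18Foxp3 cells. The genotype difference of Itgb2 passed the threshold given below in unstimulated cells (log2 fold change -0.85, edgeR adjusted p = 0.00408) and not in stimulated cells (-0.94, edgeR adjusted p = 0.216), and no library lacked Itgb2 reads. Only exon 3 of Itgb2 is floxed, so gene-level reads include exons that the deletion leaves in place. The 7 Treg markers summed to 1624 to 2107 TPM (the deposited length-corrected unit) in unstimulated libraries. In stimulated ones they summed to 2963 to 3794 TPM in CD18wt and 3877 to 4459 TPM in CD18Foxp3 cells. Within that sum Il2ra went from a mean of 153 to 980 TPM in CD18wt and from 122 to 1372 TPM in CD18Foxp3 cells with stimulation, while Cd4 went from 614 to 366 and from 592 to 321 TPM and Cd3e from 369 to 265 and from 394 to 268 TPM. B cell markers summed to 22.6 to 30.8 TPM without and 8.79 to 19.9 TPM with stimulation, and cytotoxic lymphocyte markers to 25.5 to 41.3 and 12.6 to 26.0 TPM, with Ncr1 at 0 in every library. Of the 5 B cell markers, 3 or 4 stayed under 1 TPM in every library of a group. Myeloid markers summed to 3.32 to 18.5 TPM and erythroid markers to 0.0813 to 30.9 TPM. The Treg, B cell and cytotoxic sums moved with stimulation, and the Treg sum also lay apart between the genotypes in stimulated cells. Their part in the results was not tested. In sorted bulk cells, fewer cells of a type and less RNA per cell cannot be told apart. CD18wt unstimulated replicate 3 and CD18Foxp3 stimulated replicate 1 stood farthest from their fellows, with a mean chi-square per gene of 39.8 or more and 58.9 or more against the other libraries of their group, and leaving out either lost no member's call.

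All 10 are protein-coding genes, placed as the tables give them on GRCm38. Ahr lies on chr12:35497974-35535038, Nr3c1 on chr18:39410545-39491301, Nr1h2 on chr7:44549616-44553951, Rarg on chr15:102234938-102257517 and Vdr on chr15:97854425-97910630, all on the minus strand. Rxra lies on chr2:27676440-27762957, Rxrb on chr17:34031812-34038393, Rara on chr11:98927818-98974942, Pparg on chr6:115360951-115490399 and Rora on chr9:68653786-69388246, all on the plus strand. Exon reads over whole genes were counted, so the values do not separate isoforms.

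On the length-corrected TPM scale, which was used to compare levels between genes, Nr3c1 and Pparg marked the ends of the order in resting CD18wt Treg. In unstimulated CD18wt cells Nr3c1 was highest at 70.2 ± 9.39 TPM (SD, n = 3), followed by Nr1h2 at 57.5 ± 6.31, Rxrb at 46.4 ± 7.56 and Rarg at 44.1 ± 2.03 TPM, and the libraries of each overlapped with those of the next. Rara stood below them at 28.6 ± 2.68 TPM. Rxra at 14.1 ± 1.85 and Rora at 12.2 ± 1.27 TPM overlapped each other, while Ahr at 8.07 ± 1.95, Vdr at 3.62 ± 1.77 and Pparg at 0.497 ± 0.173 TPM were each apart from the gene above. In stimulated CD18wt cells the order was Nr1h2 at 88.0 ± 6.13, Rxrb at 57.6 ± 1.56, Rara at 47.0 ± 1.91, Nr3c1 at 45.8 ± 8.76 and Rxra at 40.2 ± 6.37 TPM. Vdr at 2.84 ± 0.718 TPM and Pparg at 2.26 ± 1.15 TPM then overlapped at the bottom. In unstimulated CD18Foxp3 cells Nr1h2 at 66.4 ± 3.44 TPM stood apart above Nr3c1 at 56.8 ± 4.20 TPM, and Ahr at 12.9 ± 1.43 TPM overlapped Rora at 13.7 ± 2.12 TPM. Vdr at 1.24 ± 0.464 and Pparg at 0.971 ± 0.208 TPM overlapped in the same cells. In stimulated CD18Foxp3 cells each of the 8 highest members, from Nr1h2 at 72.6 ± 20.6 to Rarg at 18.8 ± 3.66 TPM, overlapped its neighbour in the order, and Pparg at 4.78 ± 1.67 TPM stood above Vdr at 2.02 ± 0.954 TPM.

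Each member was compared between the genotypes within a culture and between the cultures within a genotype, with edgeR's quasi-likelihood test fitted over all genes that passed a filter on low counts. A gene was called where it changed at least 1.5-fold and its p, adjusted by Benjamini-Hochberg over all genes tested, was 0.01 or less. All 10 members passed the filter in every fit. A gene near 0 in 1 of the groups compared passes it only through the other group, which sets the direction of its change beforehand. Pparg was such a gene in the CD18wt stimulation fit and the unstimulated genotype fit, and the counts below include it. Stimulated against unstimulated CD18wt cells, 1 member rose and 2 fell, where 18.7% of the 11930 genes tested rose and 14.9% fell. In CD18Foxp3 cells 2 members rose and 2 fell, against 20.9% and 17.6% of 12019 genes. The CPM of the stimulated and unstimulated libraries did not overlap for 6 members in CD18wt and 5 in CD18Foxp3 cells, against 59.2% and 65.7% of all genes tested. The median log2 fold change of the members was 0.07 in CD18wt and 0.12 in CD18Foxp3 cells, beside 0.02 and 0.01 over all genes. TPM values moved upward on stimulation, by a median log2(TPM + 1) difference of 0.36 in CD18wt and 0.31 in CD18Foxp3 cells over all genes tested, and scaling to library totals shifted the median by 0.19 and 0.18 against TMM. CPM was therefore used for the values per library and the fold changes between groups, and TPM for the order of levels, the marker sums and the exact permutation tests.

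**Figure D1:**
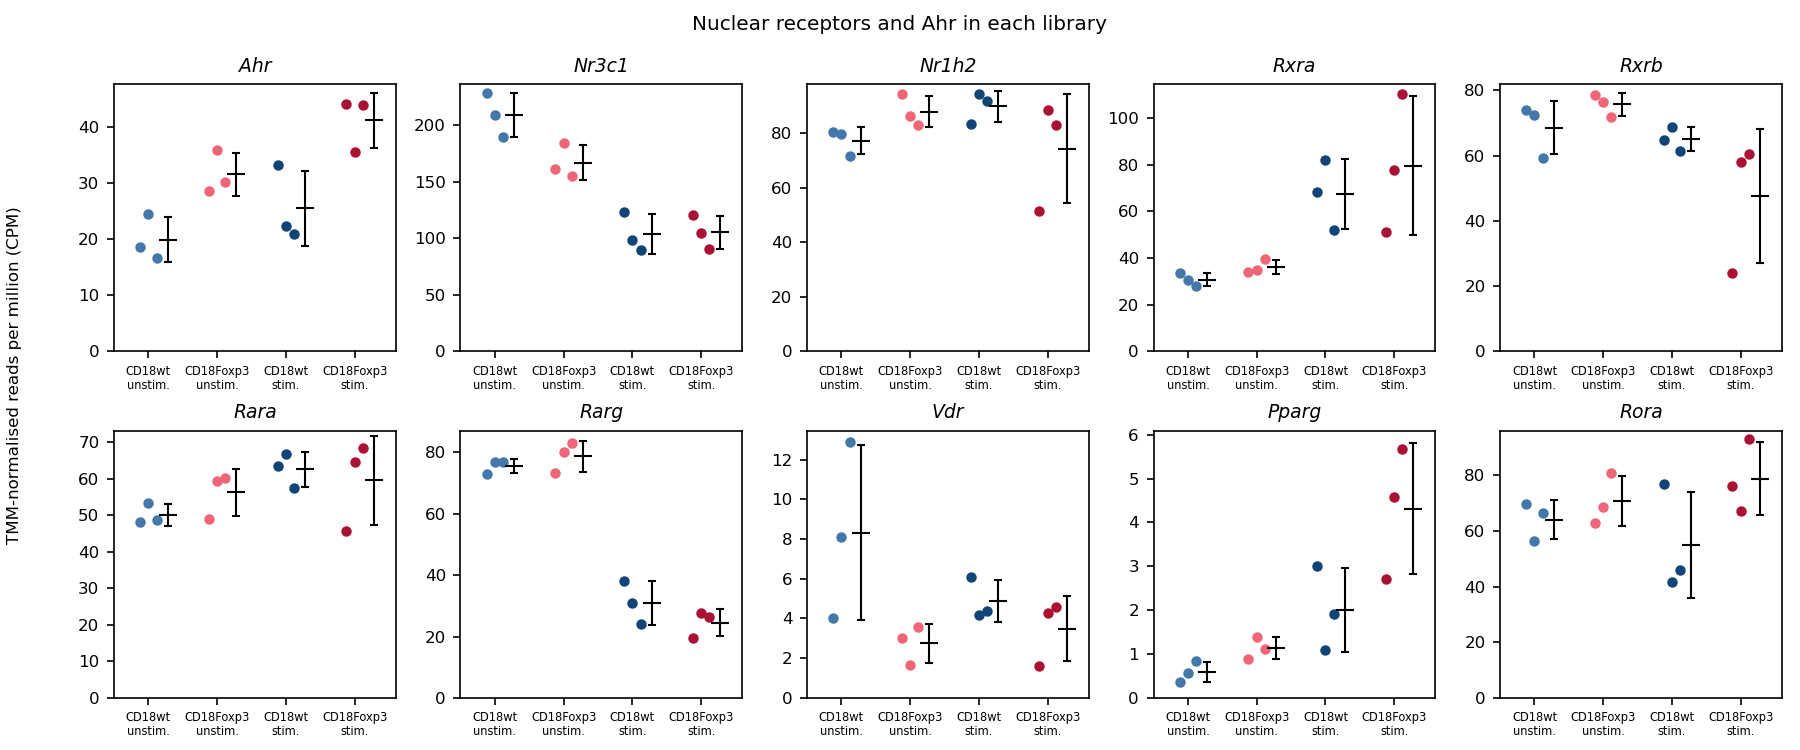
TMM-normalised CPM of the 10 members, 1 point per library, with the mean and SD of each group of 3 as a bar to the right of its points. Rarg and Nr3c1 sit lower and Rxra higher in the stimulated groups of both genotypes, and Ahr sits higher in CD18Foxp3 than in CD18wt libraries of the same culture.

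Among the partners, Rxra rose on stimulation and Rxrb did not pass the test. Rxra had 33.6, 30.8 and 27.9 CPM in unstimulated CD18wt libraries and 68.3, 82.0 and 52.1 CPM in stimulated ones. In CD18Foxp3 libraries it had 34.0, 34.9 and 39.5 CPM without and 51.0, 77.7 and 110 CPM with stimulation. The cultures did not overlap in either genotype, and the stimulated CD18Foxp3 libraries spread most. The log2 fold change was 1.13 ± 0.17 (SE, edgeR adjusted p = 0.000135) in CD18wt and 1.14 ± 0.24 (edgeR adjusted p = 0.00282) in CD18Foxp3 cells. Without CD18Foxp3 unstimulated replicate 1 or 2 the second value was 1.09 or 1.11 and missed the threshold (edgeR adjusted p = 0.0163 and 0.0148).

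Rxrb had 74.1, 72.6 and 59.1 CPM in unstimulated and 64.9, 68.8 and 61.3 CPM in stimulated CD18wt libraries. In CD18Foxp3 cells it had 78.5, 76.6 and 72.0 CPM without stimulation, and 24.1, 58.1 and 60.6 CPM with it. Replicate 1 of the stimulated CD18Foxp3 group lay far below its 2 fellows. The same library was lowest of its group for Nr1h2, Vdr, Rara, Rarg, Rxra and Pparg, and highest for Nr3c1 and Ahr. The stimulation difference of Rxrb was -0.67 ± 0.28 on the log2 scale in CD18Foxp3 cells (edgeR adjusted p = 0.0691) and -0.37 without that library, still short of the threshold in fold. With no filter on low counts it passed (-0.66, edgeR adjusted p = 3.57e-05). Its adjusted p from edgeR, DESeq2 or limma ranged up to 0.32 over the 13 other settings. In CD18wt cells the stimulation difference was -0.08 ± 0.13, a sign that turned with library totals or TPM.

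The retinoic acid receptors parted: Rarg fell in both genotypes and Rara did not pass the edgeR test. Rarg had 72.9, 76.8 and 76.8 CPM in unstimulated and 38.1, 30.8 and 23.9 CPM in stimulated CD18wt libraries. In CD18Foxp3 libraries it had 73.1, 80.0 and 82.9 CPM without and 19.5, 27.6 and 26.3 CPM with stimulation. No stimulated library reached the lowest unstimulated one. The log2 fold change was -1.29 ± 0.17 (edgeR adjusted p = 3.52e-05) in CD18wt and -1.68 ± 0.15 (edgeR adjusted p = 1.92e-05) in CD18Foxp3 cells, and the difference between them was -0.39 ± 0.23 (edgeR adjusted p = 0.987). Rara had 48.2, 53.5 and 48.7 CPM in unstimulated and 63.6, 66.8 and 57.5 CPM in stimulated CD18wt libraries, which did not overlap, with a log2 fold change of 0.32 ± 0.13 (edgeR adjusted p = 0.0584). It passed with limma on log2(TPM + 1) (0.70, adjusted p = 0.0014) and also on log2(TPM + 0.1), at 0.72. On log2(TPM + 1) the median gene tested rose too, by 0.36 in CD18wt cells. In CD18Foxp3 cells the Rara libraries overlapped, with 49.0, 59.5 and 60.3 CPM without and 45.6, 64.5 and 68.5 CPM with stimulation.

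RefSeq (GRCm38.p6) promoters are shown for Rxra and Rarg, the partner and the retinoic acid receptor called in both genotypes, as the 250 bases before each listed start, 5′ to 3′ on the gene's strand. Capitals mark AGGTCA or its reverse complement TGACCT, the hexamer element that many nuclear receptors bind, which 14.0% of 32851 promoter windows of this length hold. The Rxra windows lie at chr2:27676951-27677200 and chr2:27709042-27709291 on the plus strand, and the Rarg windows at chr15:102257523-102257772 and chr15:102246501-102246750 on the minus strand. The Rxra windows and the second Rarg window lie inside the gene spans given above. The 25 bases after the first Rarg start matched the opening part of 0 annotated transcripts of the gene, and those after the other starts 1 each. A match describes the letters of the window only.
Rxra, first start: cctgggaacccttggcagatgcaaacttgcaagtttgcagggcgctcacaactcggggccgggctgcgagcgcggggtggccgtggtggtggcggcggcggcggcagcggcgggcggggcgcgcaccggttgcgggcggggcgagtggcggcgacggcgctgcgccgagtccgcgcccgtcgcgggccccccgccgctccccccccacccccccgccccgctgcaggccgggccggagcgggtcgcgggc
Rxra, second start: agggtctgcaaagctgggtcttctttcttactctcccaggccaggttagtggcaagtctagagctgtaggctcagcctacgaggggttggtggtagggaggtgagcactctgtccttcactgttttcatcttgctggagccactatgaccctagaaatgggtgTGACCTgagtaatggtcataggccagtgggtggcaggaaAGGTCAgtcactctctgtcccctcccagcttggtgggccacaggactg
Rarg, first start: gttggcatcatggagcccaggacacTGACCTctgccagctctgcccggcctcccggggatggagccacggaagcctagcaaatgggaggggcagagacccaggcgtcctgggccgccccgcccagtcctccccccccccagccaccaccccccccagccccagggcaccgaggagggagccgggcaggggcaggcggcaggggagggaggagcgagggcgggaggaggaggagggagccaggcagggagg
Rarg, second start: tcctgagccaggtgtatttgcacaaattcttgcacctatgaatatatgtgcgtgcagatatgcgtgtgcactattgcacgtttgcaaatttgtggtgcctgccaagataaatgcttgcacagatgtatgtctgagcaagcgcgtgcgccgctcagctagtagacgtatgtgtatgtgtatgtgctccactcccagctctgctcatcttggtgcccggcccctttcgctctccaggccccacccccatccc

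**Figure D2:**
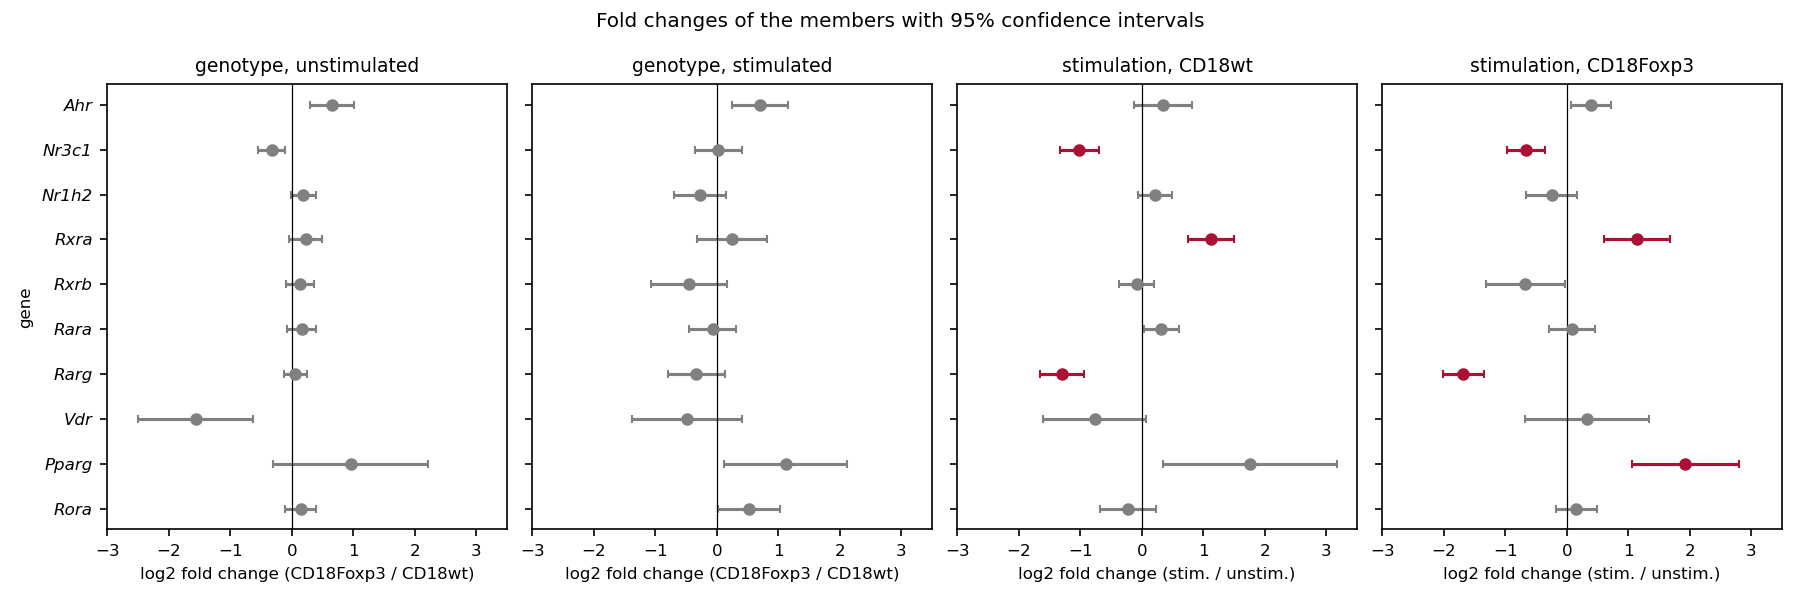
Log2 fold changes of the 10 members with 95% confidence intervals in the 4 comparisons, from edgeR's quasi-likelihood test; red points passed the threshold and grey points did not. Red points stand only in the 2 stimulation panels, 3 in CD18wt and 4 in CD18Foxp3 cells.

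Genes of retinoid handling and response were counted beside the receptors. Of 16 listed, 9 were tested on stimulation. In CD18wt cells 1 rose and 4 fell, where 18.7% of all genes tested rose and 14.9% fell. In CD18Foxp3 cells 1 rose and 5 fell, against 20.9% and 17.6% of all genes. The median log2 fold change was -1.09 and -1.40. Ccr9, a gut-homing chemokine receptor, fell by 4.44 and 5.01 on the log2 scale, Dhrs3, a retinal reductase, by 3.21 and 2.84, and Itgb7, a chain of the gut-homing integrin α4β7, by 1.82 and 2.24. Itga4, the other chain, fell by 1.09 and 1.40. Ccr9 held 17 and 18 reads over the 3 stimulated libraries of CD18wt and CD18Foxp3 cells. It passed the filter only through the unstimulated libraries, so its fall was set beforehand, and the counts and medians include it. Tgm2, a transglutaminase that retinoic acid induces, fell by 2.27 in CD18Foxp3 cells, and its value of -1.47 in CD18wt cells missed the threshold (edgeR adjusted p = 0.0183). Crabp2, which carries retinoic acid to its receptor, went the other way and passed the filter only through the stimulated libraries. It had 3 reads in the 3 unstimulated and 447 in the 3 stimulated CD18wt libraries, a ratio of 133 (95% exact counting interval 45.2 to 648), and 0 and 405 reads in CD18Foxp3 libraries, which is at least 118-fold higher against a floor of 3 reads over the group.

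The glucocorticoid receptor gene Nr3c1 fell on stimulation. It had 228, 209 and 189 CPM in unstimulated and 123, 98.1 and 89.4 CPM in stimulated CD18wt libraries. The CD18Foxp3 libraries had 161, 184 and 155 CPM without and 120, 104 and 90.7 CPM with stimulation. The cultures did not overlap in either genotype. The log2 fold change was -1.02 ± 0.15 (edgeR adjusted p = 8.8e-05) in CD18wt and -0.66 ± 0.14 (edgeR adjusted p = 0.00261) in CD18Foxp3 cells, and the difference between genotypes was 0.35 ± 0.20 (edgeR adjusted p = 0.987). The CD18Foxp3 call was lost with library totals (-0.49, adjusted p = 0.0111) and with limma on log2(TPM + 1) (-0.30, adjusted p = 0.0743) or log2(TPM + 0.1) (-0.30, adjusted p = 0.0743), and when any 1 of 4 of its 6 libraries was left out. The CD18wt call was lost with limma on log2(TPM + 1) (-0.61, adjusted p = 0.0111) and on log2(TPM + 0.1) (-0.62, adjusted p = 0.0117).

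Of 12 glucocorticoid receptor chaperones and targets, 11 were tested, and 2 rose and 4 fell in each genotype. Among all genes tested 18.7% rose and 14.9% fell in CD18wt, and 20.9% and 17.6% in CD18Foxp3 cells. The median log2 fold change was -0.83 in CD18wt and -0.65 in CD18Foxp3 cells. Tsc22d3, which encodes the glucocorticoid-induced leucine zipper, had log2 fold changes of -4.33 and -4.01. Fkbp5, a cochaperone that the receptor induces, fell by 1.28 and 1.51, and Hsd11b1, which regenerates active glucocorticoid, by 2.99 and 3.14. Dusp1, a phosphatase of MAP kinases, fell by 4.40 in CD18Foxp3 cells, and its value of -5.17 in CD18wt cells missed the threshold (edgeR adjusted p = 0.0393). Ddit4, an inhibitor of mTORC1, fell by 1.42 in CD18wt cells and missed it at -1.31 in CD18Foxp3 cells (edgeR adjusted p = 0.0353). The 2 risers were chaperones and not targets, Hsp90aa1 at 1.09 and 2.03 and Fkbp4 at 0.87 and 0.88.

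The LXRβ gene Nr1h2 did not pass the edgeR test in any comparison. It had 80.6, 79.7 and 71.6 CPM in unstimulated and 83.5, 94.4 and 92.0 CPM in stimulated CD18wt libraries, without overlap, and the log2 fold change was 0.22 ± 0.12 (edgeR adjusted p = 0.172). With limma it passed, at 0.61 on log2(TPM + 1) (adjusted p = 0.00255), a scale where the median gene rose by 0.36. On log2(TPM + 0.1) it passed at 0.62 (limma adjusted p = 0.00273). In CD18Foxp3 libraries it had 94.3, 86.5 and 83.2 CPM without and 51.5, 88.6 and 83.1 CPM with stimulation, and the sign of the difference, -0.24 ± 0.18, turned with TPM. Of 11 LXR targets and oxysterol enzymes, 1 of 7 tested rose and 3 fell in CD18wt cells, against 18.7% and 14.9% of all genes. In CD18Foxp3 cells 2 of 8 tested rose and 3 fell, against 20.9% and 17.6%. The median was -0.99 and -0.49. The cholesterol exporters Abca1 and Abcg1 fell by 5.34 and 2.77 on the log2 scale in CD18wt cells and by 5.51 and 3.21 in CD18Foxp3 cells. Abca1 held 23 and 28 reads over the 3 stimulated libraries of each genotype. It passed the filter only through the unstimulated libraries, so its fall was set beforehand, and the counts and medians include it. Mylip, a ubiquitin ligase for the LDL receptor, fell by 1.93 and 2.45, while Lpcat3, a phospholipid-remodelling enzyme, rose by 1.17 and 1.09. Scd1, a fatty acid desaturase, rose in CD18Foxp3 cells, from 2 reads in the 3 unstimulated to 71 in the 3 stimulated libraries, a ratio of 30.9 (95% exact counting interval 8.26 to 260), and was not tested in CD18wt cells. It passed the filter only through the stimulated libraries. The other LXR gene, Nr1h3, had at most 2.09 CPM in any library.

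Pparg was the lowest of the members in 3 of the 4 groups and rested on 6 to 94 reads per library. It had 0.372, 0.577 and 0.837 CPM in unstimulated and 3.0, 1.10 and 1.90 CPM in stimulated CD18wt libraries. The unstimulated ones held 6, 10 and 8 reads. Pparg passed the filter in that comparison only through the stimulated libraries, which set the direction of its change beforehand. The CD18Foxp3 libraries had 0.896, 1.40 and 1.11 CPM without and 2.70, 4.57 and 5.67 CPM with stimulation. The cultures did not overlap in either genotype. Pparg rose in CD18Foxp3 cells, with a log2 fold change of 1.93 ± 0.39 (edgeR adjusted p = 0.0023), and the change of 1.76 ± 0.66 in CD18wt cells missed the threshold (edgeR adjusted p = 0.0398). The test of the difference gave 0.16 ± 0.75 (edgeR adjusted p = 0.994), so the 2 genotypes were not shown to differ. The CD18Foxp3 call was lost without unstimulated replicate 1 or 3 or stimulated replicate 3. Of 10 PPARγ targets, 6 were tested. In CD18wt cells 2 rose and 1 fell, against 18.7% and 14.9% of all genes. In CD18Foxp3 cells 3 rose and 2 fell, against 20.9% and 17.6%. The median was 0.44 and 0.72. Fabp5, a fatty acid carrier, rose by 2.38 and 2.64 and Angptl4, a lipase inhibitor, by 1.93 and 1.70, and Ucp2, a mitochondrial carrier, fell by 0.91 and 1.02. In CD18Foxp3 cells Acsl1, which activates fatty acids, rose by 0.88 and Cpt1a, which passes them to the mitochondrion, fell by 0.89, and both missed the threshold in CD18wt cells at 0.68 and -0.60 (edgeR adjusted p = 0.0184 and 0.0187).

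Vdr and Rora did not pass the test on stimulation. Vdr had 4.03, 8.08 and 12.9 CPM in unstimulated and 6.08, 4.16 and 4.37 CPM in stimulated CD18wt libraries, on 24 to 140 reads over all libraries. In CD18Foxp3 libraries it had 3.03, 1.68 and 3.57 CPM without and 1.62, 4.25 and 4.58 CPM with stimulation. The cultures overlapped in both genotypes. Of 7 vitamin D enzymes and targets only Cyp2r1 and Spp1 were tested on stimulation and neither passed, and Cyp24a1, the classical target, was at 0 in all libraries but 1. Rora had 69.7, 56.3 and 66.4 CPM in unstimulated and 76.8, 41.8 and 46.1 CPM in stimulated CD18wt libraries. The CD18Foxp3 libraries had 62.9, 68.8 and 80.8 CPM without and 76.1, 67.3 and 93.1 CPM with stimulation, again with overlap.

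Between the genotypes, no member passed the threshold in either culture. In unstimulated cells 0.0507% of the 11829 genes tested were higher and 0.0845% lower in CD18Foxp3 cells. Of the members, 0 were called with edgeR and 3 had an unadjusted p under 0.05, Ahr, Vdr and Nr3c1, where 1134 of all genes (9.59%) did. In stimulated cells edgeR called 0 of 11930 genes, 0.0% in either direction, with 583 (4.89%) at an unadjusted p under 0.05 and 3 members, Ahr, Pparg and Rora, among them, while DESeq2 called 22 and the likelihood ratio test 16. The CPM of the genotypes did not overlap for 6 members in unstimulated and 2 in stimulated cells, against 16.7% and 9.83% of the genes tested. The exact permutation test on log2(TPM + 1) of 3 against 3 libraries cannot give a two-sided p below 0.1, which Ahr reached in both cultures.

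Ahr was the member whose genotypes were apart in both cultures. Unstimulated CD18wt libraries had 18.6, 24.4 and 16.6 CPM and CD18Foxp3 libraries 28.6, 35.8 and 30.1 CPM. After stimulation the values were 33.2, 22.3 and 20.9 CPM in CD18wt and 44.0, 35.5 and 43.9 CPM in CD18Foxp3 libraries. Each CD18Foxp3 library lay above every CD18wt library of its culture. The log2 difference was 0.65 ± 0.16 in unstimulated (edgeR adjusted p = 0.14) and 0.70 ± 0.21 in stimulated cells (edgeR adjusted p = 0.724). Leaving out 1 library at a time gave 0.54 to 0.84 and 0.58 to 0.94. With no filter on low counts the unstimulated difference passed the threshold (0.66, edgeR adjusted p = 0.00144), in a fit that called 134 genes against 16. Over the 13 other settings, with edgeR, DESeq2 or limma, the adjusted p of that difference ranged from 0.00144 to 0.44. The change on stimulation was 0.35 ± 0.22 in CD18wt (edgeR adjusted p = 0.209) and 0.39 ± 0.14 in CD18Foxp3 cells (edgeR adjusted p = 0.0437). The CD18wt value ranged from 0.10 to 0.52 with 1 library left out, and was 0.68 and 0.74 with limma on log2(TPM + 1) and log2(TPM + 0.1) (adjusted p = 0.0455 and 0.0456). The CD18Foxp3 value passed with both, at 0.71 (adjusted p = 0.00284) and 0.75. On log2(TPM + 1) the median gene tested rose by 0.36 in CD18wt and 0.31 in CD18Foxp3 cells.

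Vdr pointed the other way in unstimulated cells, with every CD18wt library at or above 4.03 CPM and every CD18Foxp3 library at or below 3.57 CPM. The log2 difference was -1.56 ± 0.42 (edgeR adjusted p = 0.204), ranged from -1.90 to -1.13 with 1 library left out, and passed the threshold with no filter on low counts (-1.56, edgeR adjusted p = 9.21e-05). Over the 13 other settings the difference ranged from -1.58 to -0.99, with an adjusted p from edgeR, DESeq2 or limma of 9.21e-05 to 0.419. In stimulated cells the genotypes overlapped, at -0.48 ± 0.41. Nr3c1 differed by -0.33 ± 0.10 in unstimulated cells (edgeR adjusted p = 0.25), without overlap in CPM and with overlap in TPM, and by 0.03 ± 0.17 in stimulated cells. Pparg differed by 0.96 ± 0.57 and 1.12 ± 0.46, and Rora by 0.14 ± 0.12 and 0.53 ± 0.23. In unstimulated cells Pparg passed the filter only through the CD18Foxp3 libraries, so the direction of its difference was set beforehand. No member passed the test of whether the stimulation change differed between genotypes, for which edgeR called 0 of 12636 genes, 0.0% in either direction. At an unadjusted p under 0.05 that test had 485 genes and 0 members, and DESeq2 called 1 gene.

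Among the targets of Ahr, Ahrr, Cyp1a1, Cyp1b1, Nqo1 and Tiparp rose on stimulation in both genotypes. Of 14 partners and targets, 11 were tested. In CD18wt cells 6 rose and 1 fell, against 18.7% and 14.9% of all genes tested. In CD18Foxp3 cells 7 rose and 0 fell, against 20.9% and 17.6%. The median log2 fold change was 0.69 and 1.02, which did not move with genes at 0 set to their bound. Ahrr, Cyp1a1, Cyp1b1 and Nqo1, near 0 without stimulation, could not pass the filter without the stimulated libraries, so their rise was fixed beforehand. The counts and medians include them, and none were computed without them. Cyp1a1, a xenobiotic-metabolising enzyme, had at most 0.733 CPM in unstimulated and 11.5 to 35.5 CPM in stimulated libraries, and its log2 fold change was 6.19 in CD18wt and 7.15 in CD18Foxp3 cells. Nqo1, a quinone reductase, had 0.124 to 1.05 CPM in unstimulated CD18wt and 0.210 to 0.739 CPM in unstimulated CD18Foxp3 libraries. It rose by 4.45 and 5.85. Ahrr had 1 read in the 3 unstimulated and 386 in the 3 stimulated CD18wt libraries, a ratio of 345 (95% exact counting interval 61.5 to 13650), and 3 and 821 reads in CD18Foxp3 libraries, a ratio of 239 (81.3 to 1159). Cyp1b1 had 0 and 109 reads in CD18wt libraries, at least 32.4-fold higher against a floor of 3 reads over the group, and 1 and 200 reads in CD18Foxp3 libraries, a ratio of 174 (30.9 to 6920). Tiparp, named after its values were seen, rose by 1.09 and 1.73. Arnt2, a paralog of the partner Arnt, fell by 2.17 in CD18wt cells and missed the threshold at -0.55 in CD18Foxp3 cells (edgeR adjusted p = 0.23). Arnt itself had 55.0 to 79.0 CPM and did not pass the test.

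Gpr15, a homing receptor that Ahr is known to induce, was the list's 1 gene called between genotypes. It had 14.5, 13.3 and 8.58 CPM in CD18wt and 37.4, 41.9 and 54.3 CPM in CD18Foxp3 unstimulated libraries, a log2 difference of 1.86 (edgeR adjusted p = 0.0043). In stimulated libraries it had 22.7, 16.5 and 8.90 CPM against 59.2, 43.9 and 88.9 CPM, a difference of 2.01 that missed the threshold (edgeR adjusted p = 0.22). The groups did not overlap in either culture, and Gpr15 did not pass the test on stimulation. Over the 11 listed genes tested in stimulated cells the median genotype difference was 0.66 on the log2 scale, beside -0.00295 over all genes tested, and 0 of them passed the edgeR test. Over the 8 tested in unstimulated cells it was -0.12, beside -0.00437 over all genes tested. The list, Gpr15 included, was chosen with earlier results of these data known. The Gpr15 call and these medians are therefore descriptions and no independent support for the Ahr difference.

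**Figure D3:**
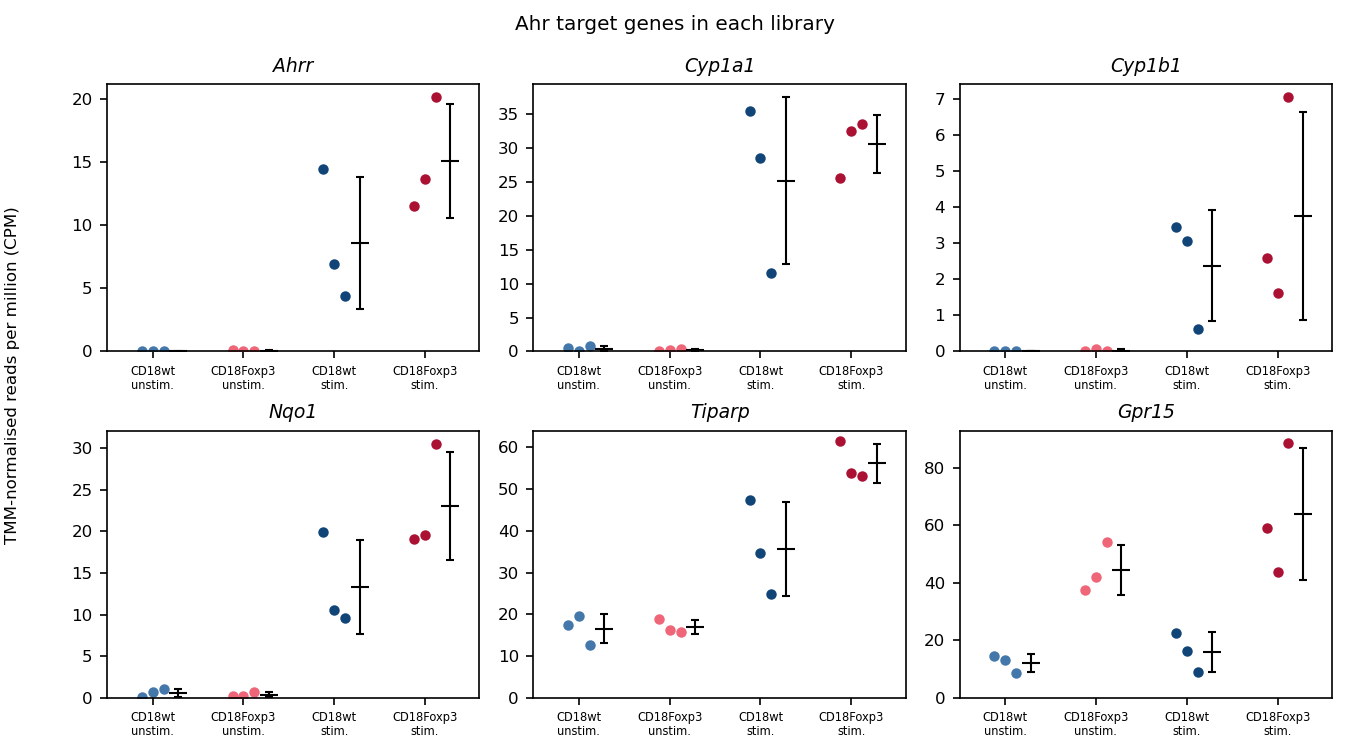
TMM-normalised CPM of 6 Ahr target genes, 1 point per library, with the mean and SD of each group of 3 to the right. Ahrr, Cyp1a1, Cyp1b1 and Nqo1 lie near 0 in all unstimulated libraries, and Gpr15 separates by genotype rather than by culture.

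The promoters of the Ahr targets that rose most, and of Tiparp and Gpr15, are given because they differ in the letters Ahr is known to bind. They were chosen after the values were seen, come from RefSeq (GRCm38.p6) and span the 250 bases before the start, 5′ to 3′ on the gene's strand. Capitals mark the core GCGTG or its reverse complement CACGC, which 28.2% of 32851 promoter windows of this length hold. The core occurs 3 times in the Ahrr window and 1 time each in those of Cyp1a1, Cyp1b1 and Tiparp, and 0 times in those of Nqo1 and Gpr15. Among the other listed genes with a window, the partners Ptges3 and Arnt held it 2 times and 1 time. Those of Arnt2, Cyp1a2 and Il22 held it 0 times. No enrichment was tested, and a match describes the letters of the window only. The windows are chr13:74292332-74292581 for Ahrr, chr9:57697363-57697612 for Cyp1a1, chr17:79715062-79715311 for Cyp1b1, chr3:65528197-65528446 for Tiparp, chr8:107403206-107403455 for Nqo1 and chr16:58718873-58719122 for Gpr15, with Cyp1a1 and Tiparp on the plus strand and the others on the minus strand.
Ahrr: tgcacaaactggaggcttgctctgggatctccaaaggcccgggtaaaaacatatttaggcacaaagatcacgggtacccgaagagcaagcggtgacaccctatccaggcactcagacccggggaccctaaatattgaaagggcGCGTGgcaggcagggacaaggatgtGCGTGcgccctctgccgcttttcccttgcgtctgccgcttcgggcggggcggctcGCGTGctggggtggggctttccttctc
Cyp1a1: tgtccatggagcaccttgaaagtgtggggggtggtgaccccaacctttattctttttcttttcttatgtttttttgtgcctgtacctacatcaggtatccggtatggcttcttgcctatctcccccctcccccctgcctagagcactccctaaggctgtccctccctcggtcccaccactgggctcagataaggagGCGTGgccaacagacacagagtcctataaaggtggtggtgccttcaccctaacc
Cyp1b1: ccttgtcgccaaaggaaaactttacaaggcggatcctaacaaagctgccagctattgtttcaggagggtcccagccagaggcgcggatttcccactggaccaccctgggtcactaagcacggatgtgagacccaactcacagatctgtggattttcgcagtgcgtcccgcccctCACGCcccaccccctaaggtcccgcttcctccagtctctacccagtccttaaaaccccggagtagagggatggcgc
Tiparp: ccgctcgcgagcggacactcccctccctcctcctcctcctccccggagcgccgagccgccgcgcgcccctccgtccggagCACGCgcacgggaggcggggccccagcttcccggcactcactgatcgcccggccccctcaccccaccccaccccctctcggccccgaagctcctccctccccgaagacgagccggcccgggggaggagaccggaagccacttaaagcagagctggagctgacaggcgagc
Nqo1: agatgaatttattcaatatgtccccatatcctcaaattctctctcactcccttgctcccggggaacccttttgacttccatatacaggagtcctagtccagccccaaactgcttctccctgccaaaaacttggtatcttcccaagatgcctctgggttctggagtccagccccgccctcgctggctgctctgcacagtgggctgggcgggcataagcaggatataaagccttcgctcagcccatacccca
Gpr15: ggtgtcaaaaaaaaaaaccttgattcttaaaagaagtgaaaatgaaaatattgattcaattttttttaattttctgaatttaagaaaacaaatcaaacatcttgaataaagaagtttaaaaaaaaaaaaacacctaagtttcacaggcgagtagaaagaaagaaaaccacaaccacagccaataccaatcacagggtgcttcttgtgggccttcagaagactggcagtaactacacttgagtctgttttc

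Reads in introns, which come largely from unspliced RNA and can include transcripts nested there, were compared without a test, as intron CPM relative to the exon reads of the library. Nr3c1 had 5.18 to 8.08 intron CPM in unstimulated and 1.88 to 2.98 in stimulated CD18wt libraries, and 5.52 to 7.23 and 1.21 to 3.58 in CD18Foxp3 libraries. Rxra had 0 to 0.609 and 1.59 to 2.43 in CD18wt, and 0.421 to 0.782 and 1.85 to 2.58 in CD18Foxp3 libraries. For both genes the cultures did not overlap and lay in the order of the exon reads. Rarg intron reads overlapped between cultures, at 2.63 to 3.65 and 2.67 to 6.20 in CD18wt and 3.84 to 7.46 and 1.69 to 4.16 in CD18Foxp3 libraries. Ahr intron reads overlapped between genotypes, at 0.563 to 2.27 in CD18wt and 1.63 to 2.93 in CD18Foxp3 unstimulated libraries. Over all genes, intron reads were 3.44% to 6.37% of exon reads in the libraries, and the values were not adjusted for this. In unstimulated libraries Rxra rested on 0 to 12 intron reads and Ahr on 6 to 45.

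**Figure D4:**
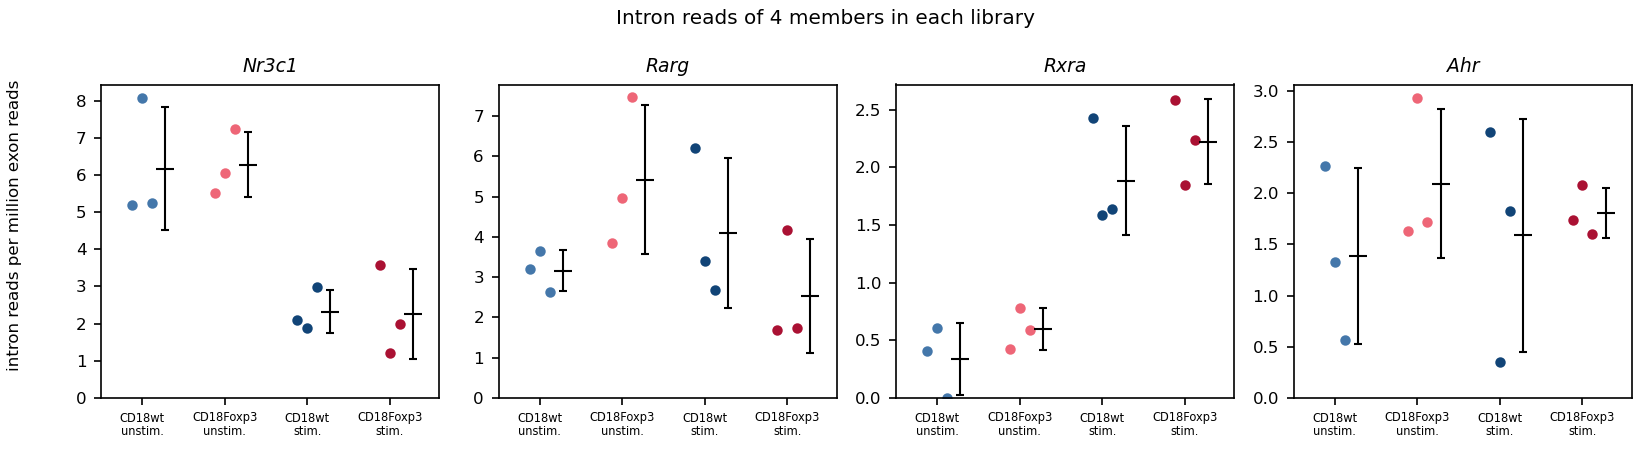
Intron CPM, relative to the exon reads of each library, of Nr3c1, Rarg, Rxra and Ahr, 1 point per library, with the mean and SD of each group of 3 to the right. Nr3c1 is lower and Rxra higher in stimulated libraries of both genotypes, while Rarg overlaps between the cultures of each genotype and Ahr between all groups. Unstimulated Rarg values lie lower in CD18wt than in CD18Foxp3 libraries, without overlap.

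Of 40 other nuclear receptor genes, 18 were tested on stimulation. In CD18wt cells 4 rose and 4 fell, against 18.7% and 14.9% of all genes tested. In CD18Foxp3 cells 5 rose and 5 fell, against 20.9% and 17.6%, and none passed between the genotypes. Nr4a1, an immediate-early gene of antigen receptor signalling, was the highest of them at a mean of 214 TPM, followed by Nr4a3 at 88.7, Esrra at 28.5 and Nr1d2 at 23.5 TPM. Nr4a3 rose by 2.88 in CD18wt and 3.05 in CD18Foxp3 cells on the log2 scale, Nr4a2 by 1.93 and 2.08, Nr6a1 by 1.81 and 1.99, and Ppard by 1.19 and 0.91. The estrogen receptor gene Esr1 fell by 2.61 and 2.66, the mineralocorticoid receptor gene Nr3c2 by 2.21 and 2.67, and the thyroid hormone receptor gene Thra by 1.22 and 1.41. Esr1 held 27 and 23 reads over the 3 stimulated libraries of each genotype. It passed the filter only through the unstimulated libraries, so its fall was set beforehand, and the counts include it.

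The 3 members with the widest range of group means were Pparg, Rarg and Vdr, at 2.62, 1.69 and 1.47 on the log2 CPM scale. Over the 12 libraries, which share the 4 groups, the genes most like Rarg among 12636 were Klf13 (Pearson's r = 0.996), Rin3 (0.994) and Ctdsp1 (0.994). Those most like Pparg were Slc15a3 (0.960), Crybg3 (0.957) and Slc2a6 (0.954), and those most like Vdr were Ltbp4 (0.894), Ctu1 (0.856) and 2310022B05Rik (0.855). These are descriptions over libraries that differ by culture and genotype.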

How the data were processed

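Splenic RFP+CD4+ T cells were sequenced as 59-base single reads from poly(A) RNA libraries made with 15 PCR cycles. Per the labels and methods, the authors trimmed the reads and used CLC Genomics Workbench to align them to GRCm38, and deposited 1 table per library with exon read counts, intron reads and TPM. The deposited counts were not normalised, and the deposited TPM values are scaled by exon length. Fold changes came from edgeR 4.0.16 in R 4.3.3 (TMM, filterByExpr with a minimum count of 10, robust quasi-likelihood test, Benjamini-Hochberg adjustment), fitted on the libraries of each comparison. DESeq2 1.42.0 and limma 3.58.1 were alternatives, beside other normalisations, filters, thresholds, a replicate block and leaving out each library. Scripts were tested on simulated data. Exact permutation tests used log2(TPM + 1). Between 99.2% and 100% of each member's exon reads were uniquely placed. Exons of Ahr and Rora share 127 and 82 bases with Gm48236 and Gm15511 on the opposite strand, and no source used here states that counting used strand.

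Members were taken by name, and members and gene lists were chosen with earlier results of these data known. Named were all members, the 4 other nuclear receptors with the highest mean TPM, in each list up to 4 largest rises and falls past the threshold without overlap in TPM, and for 3 members the 3 genes with the highest correlation. Of the genes so named, 1 is not reported here. The labels call the replicates biological. Depth was 10665174 to 19005482 exon reads, and counting intervals cover counting error only. Fold changes and p-values of the authors' own comparisons and their RPKM columns were not used.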

Additional observations from a re-analysis of the deposited data

How the results depend on the processing

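Of the members' results under other settings, 612 kept their direction and side of the threshold, 10 gained a call, 5 lost one and 10 changed sign, and with 1 library left out 330 kept both, 9 lost a call and 21 changed sign. The 16 genes called between genotypes in unstimulated cells became 86 with DESeq2, 86 with the likelihood ratio test, 134 with no filter, 1 and 2 with limma on log2(TPM + 1) and log2(TPM + 0.1), 41 with the replicate block, 0 with all 12 libraries in 1 fit, 33 at an adjusted p of at most 0.05, and 0 to 44 with 1 library left out. The 44 came without CD18wt unstimulated replicate 3. In stimulated cells the 0 genes became 22, 16, 61, 1 (limma on log2(TPM + 0.1)), 1 with the replicate block, and 0 to 2. The interaction gave 1 gene with DESeq2, 6 with the likelihood ratio test, 31 with no filter and 1 with each limma fit.

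Signs turned for Rxrb on stimulation in CD18wt cells (0.11 with library totals, 0.32 and 0.33 with limma), Rora there (0.12 and 0.13 with limma), Nr1h2 in CD18Foxp3 cells (0.0867 and 0.0872 with limma) and, for Rxra, interaction values (-0.0552 and -0.0667 with limma, -0.0384 with the replicate block). With 1 library left out, the genotype difference in stimulated cells ranged from -0.0858 to 0.18 for Nr3c1, -0.18 to 0.0862 for Rara and -0.0637 to 0.48 for Rxra, the stimulation change of Rara in CD18Foxp3 cells from -0.0374 to 0.22, and the interaction from -0.30 to 0.25 for Rxra, -0.14 to 0.27 for Ahr and -0.12 to 0.56 for Pparg. The cause was not tested.

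Replicate numbers were not treated as pairs, since the labels name no animal. Same-numbered cultures of a genotype deviated together at correlations of -0.09 to 0.10 in CD18wt and 0.07 to 0.15 in CD18Foxp3 cells. With 3 libraries a group, such values cannot exclude a shared mouse. The deposited tables carry numbers that may mark 1 mouse behind an unstimulated and a stimulated culture of the same replicate number, which the labels do not state. The replicate block changed no member's call. With 3 libraries a group, Vdr and Pparg rest on few reads.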

Other observations

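Of 11 genes of the circadian clock, several of which are ROR targets, 10 were tested. On stimulation 1 rose and 1 fell in CD18wt and 2 rose and 1 fell in CD18Foxp3 cells. The shares over all genes tested were 18.7% and 14.9% in CD18wt and 20.9% and 17.6% in CD18Foxp3 cells. Dbp, a clock output factor, fell by 1.99 and 1.81 on the log2 scale, and Nfil3 rose by 0.68 and 0.72. Npas2, a partner of Arntl, rose by 1.20 in CD18Foxp3 cells and missed the threshold at 2.24 in CD18wt cells (edgeR adjusted p = 0.0278). In CD18wt cells it held 20 reads over the 3 unstimulated libraries and passed the filter only through the stimulated ones. Of 14 coregulators of nuclear receptors, 13 were tested. Against the same shares, 1 rose and 2 fell in CD18wt and 1 rose and 1 fell in CD18Foxp3 cells. Hdac3, the deacetylase of the NCoR complex, rose by 0.59 and 0.79, and Nrip1, a corepressor, fell by 1.16 and 1.16. Ncoa1, a coactivator, fell by 0.68 in CD18wt cells and missed the threshold at -0.46 in CD18Foxp3 cells (edgeR adjusted p = 0.0228).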
